A study of Bos taurus with 8 samples.

Results

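The subject here is the set of nuclear genes for subunits of the mitochondrial respiratory chain and of the ATP synthase in bovine blood neutrophils around calving. The members were every non-control probe on the array whose transcript accession maps to a bovine gene symbol that begins with NDUFA, NDUFB, NDUFC, NDUFS or NDUFV (assembly factors left out), with UQCR, with COX4 to COX8 or with ATP5, together with CYC1 and SDHA to SDHD. They were 167 probes for 82 genes, out of 43653 probes in all, of which 26832 could be named with 12639 gene symbols. By complex, there were 62 probes for 36 genes of complex I, 7 probes for 3 genes of complex II, 18 probes for 8 genes of complex III, 34 probes for 17 genes of complex IV, and 46 probes for 18 genes of the ATP synthase. NDUFA4 and NDUFA4L2 were placed with complex IV, where the NDUFA4 protein is now known to sit. NDUFS8, SDHC, UQCRC2, COX5A, COX7ALP1, COX7C and COX8C were matched to no probe and were not analysed here.

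The samples were neutrophils from jugular blood of female Holstein Friesian dairy cows in the weeks around calving, taken at day -14, counted from the expected date of calving (C-14), and at day 7, counted from the actual date (C+7). No treatment was given to either group, as far as the labels say. Total RNA was labelled with Cy3 and hybridised to a 1-colour Agilent bovine array, with 4 arrays at each time. The series text names 3 cows, and which cow each array came from is not given in the sources used here. If those 3 cows gave all the arrays, some of the 4 arrays of a time must share a cow, and arrays of both times may as well. The arrays of a time are then not 4 independent animals. P-values over arrays measure the spread between arrays, which may be partly technical.

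In the inner mitochondrial membrane, complex I (NADH dehydrogenase) and complex II (succinate dehydrogenase) pass electrons to ubiquinone, complex III (cytochrome bc1) passes them on to cytochrome c, and complex IV (cytochrome c oxidase) hands them to oxygen. Complexes I, III and IV pump protons as they do so, and the ATP synthase lets the protons flow back and makes ATP. Neutrophils are known for relying mostly on glycolysis for ATP and for holding few mitochondria, which have been tied more to cell survival and movement than to energy supply.

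Signal on the arrays was low. A probe is called detected below where the scanner software called it well above the local background. Between 387 and 4486 probes were detected per array, or 0.887% to 10.3%, and replicate 4 of each time was the dimmest of its time, with 761 probes at C-14 and 387 at C+7. Across 1091 probes, C+7 replicate 4 correlated with the other arrays at only 0.00129 to 0.185, while the 6 other arrays apart from C-14 replicate 4 correlated with each other at 0.689 to 0.952. All C-14 arrays lay on 1 slide and all C+7 arrays on the other, so slide and time cannot be told apart. On those 6 brighter arrays, the summed scaled signal of 8 neutrophil marker probes was 12.3 to 25.7 at C-14 and 72.1 to 87.8 at C+7, with 4 of them called higher after calving (LTF at both its probes, S100A12 and MMP9). The LTF and MMP9 probes were detected on no C-14 array and entered the comparison only through C+7, so their differences depend on the floor set below. Most of that sum was the S100A12 probe that was called, at 3.95 and 6.24 on the log2 scale and detected on all 6 arrays. CXCR1 was at -1.25 ± 0.25 (limma adjusted p = 0.0586, lower after calving without overlap). CXCR2 was at -0.06 ± 0.14, with 2 arrays of each time at that floor. The markers MPO, ITGAM and S100A8 were detected on no array. The 4 T cell probes summed to 4.99 to 6.90 at C-14 and to 1.37 to 1.58 at C+7, with 3 of 4 called lower, and the eosinophil marker ALOX15 gave 1.03 to 1.37 at C-14 and 0.139 to 0.153 at C+7. Of the other lists, 1 of 2 NK probes and the monocyte probe for CSF1R were called lower, 0 of 3 B cell probes and 0 of 1 red cell probes were called, and no basophil or platelet marker was detected on any array. Of the probes called lower, those of CD3E (T cell) and GNLY (NK) entered only through C-14 and were at the floor on every C+7 array. The part of this shift in marker levels in the values below was not tested, and in such bulk samples fewer cells of a type and less RNA per cell cannot be told apart.

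The share of detected probes was higher for respiratory chain and ATP synthase genes than for all probes, although most of their probes stayed dark; these shares are given without a test. Of the 167 member probes, 72 (43.1%) were detected on at least 1 array, against 7305 (16.7%) of all probes, and 95 were detected on none. At the level of genes, 51 of 82 were detected and 31 were not. Complex III had 7 of its 8 genes detected, complex IV 11 of 17, the ATP synthase 12 of 18 and complex I 20 of 36. Complex II had 1 of 3: SDHB, the iron-sulfur subunit of succinate dehydrogenase, on C-14 replicate 1 alone. SDHA, the flavoprotein subunit of the same enzyme, and SDHD, a membrane anchor, were detected on no array.

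The number of detected members varied as widely within each time as between the times. On C-14 replicates 1 to 4, 58, 36, 67 and 9 member probes were detected. On C+7 replicates 1 to 4 the counts were 40, 49, 40 and 2. The 3 brighter arrays of each time overlapped, and replicate 4 was the lowest at both times. As shares, these were 34.7%, 21.6%, 40.1% and 5.39% before and 24.0%, 29.3%, 24.0% and 1.20% after calving. Complex III had the widest spread between the brighter arrays, from 22.2% on C+7 replicate 3 to 66.7% on C-14 replicate 3, whereas complex IV ranged from 26.5% to 44.1% on them. The plot of detection by array shows that the complexes I, III, IV and V lay above the share of all probes on each of the 6 brighter arrays.

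**Figure D1:**
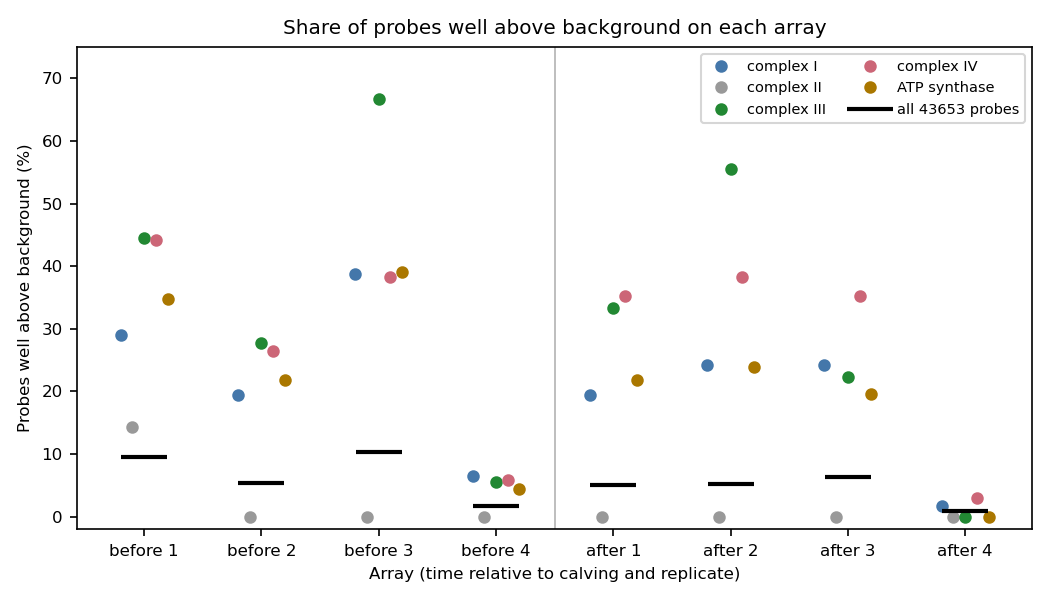
Share of probes well above background on each of the 8 arrays (percent), by complex (coloured points) and over all 43653 probes (black bars). Every complex except complex II sat above the black bar on the 6 brighter arrays, and replicate 4 of each time was low for all of them.

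Only NDUFA3, a small accessory subunit of complex I, and COX6B2, the testis-type counterpart of the complex IV subunit COX6B1, were detected on all 8 arrays, each by 1 probe. They were also the only members detected on C+7 replicate 4. The other probes of both genes were detected on no array. Among complex I genes, the undetected ones included NDUFA9 and NDUFS4, which help to assemble or stabilise the matrix arm, and NDUFAB1, the mitochondrial acyl carrier protein. The core subunits NDUFS3, NDUFV1 and NDUFV2, which belong to the arm that takes electrons from NADH, were detected. In the ATP synthase, ATP5F1A, ATP5F1B and ATP5F1C (alpha, beta and gamma of the catalytic head) were detected and ATP5F1D (delta) was not.

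Several subunits exist as a widely expressed form and a form better known from muscle or another tissue, and detection separated most of these pairs. COX4I1, the common form of COX4, was detected on 6 arrays and COX4I2, the lung form, on 1. COX6A1 was detected on 7 arrays, and its heart and muscle counterpart COX6A2 on 0. COX8A was detected on 6 arrays and the muscle form COX8B on 0. The pair COX7A1 and COX7A2 ran the other way, with the muscle form COX7A1 on 2 arrays and the common form COX7A2 on 0 at all 3 of its probes. The related COX7A2L, which takes part in joining complexes III and IV, was detected on 6. For COX6B1 the count was 6 arrays and for COX6B2 it was 8. Of the 2 COX6B2 probes 1 was detected, and of the 3 COX6B1 probes 2 were. On C+7 replicate 4, the dimmest array, the detected COX6B2 probe had an intensity of 81.9, against 38.2 to 79.3 on the other C+7 arrays. NDUFA13 and ATP5F1A stood at 12.7 and 5.0 on that array. Whether the COX6B2 probe follows its transcript was not tested. The genes ATP5MC1, ATP5MC2 and ATP5MC3 encode the same mature c subunit of the proton-conducting ring, and they were detected on 4, 6 and 0 arrays. A probe that stays dark can be a weak probe, so these counts describe probes and not the absence of a transcript.

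When all 8 arrays were compared, no member differed between the times. The software's processed signal was used here, as log2 with each array shifted by its 75th percentile of the 115 probes that every array detected, so that 0 is that percentile. A probe was tested where it was detected on every array of at least 1 time, which left 475 probes, 7 of them members. limma (moderated linear model, Benjamini-Hochberg adjustment over all tested probes, threshold 0.05) called 0 of the 7 members, beside 0% of all tested probes. None of the 7 had an unadjusted limma p under 0.05, beside 1.47% of all tested probes, and none had times that did not overlap, beside 1.05%. Their median difference, C+7 minus C-14, was -0.56 on the log2 scale, against -0.20 for all tested probes, with 2 above 0 and 5 below, and the limma adjusted p was 0.983 for every one of them. The sign of that median was not stable: without C-14 replicate 2 it was 0.06, without C-14 replicate 4 it was 0.20 and without C+7 replicate 4 it was 0.60, over 8, 34 and 35 member probes. The medians of all tested probes moved as well, to 0.21, 0.03 and 0.42 in the same order. Relative to these, the members lay at -0.14, 0.17 and 0.18. Standard errors lay near 1.13, since the median spread within a time was 1.59 on the log2 scale.

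The values by array show where that spread came from. NDUFA13 (complex I, also known as the cell death regulator GRIM-19) measured -0.94, 0.86, -3.48 and -1.10 on C-14 replicates 1 to 4 and -0.23, -0.91, -0.37 and -2.46 on C+7 replicates 1 to 4, a difference of 0.18 ± 1.13 (SE). Replicate 3 was the lowest before calving and replicate 4 the lowest after it, and the times overlapped. The same arrays were lowest for COX6A1, at -3.72 and -4.10, where the highest was 0.11 before and -1.61 after calving, a difference of -0.56 ± 1.12. They were lowest for ATP5F1A, at -3.99 and -3.81, with a difference of -0.65 ± 1.12, and for UQCRFS1, at -6.45 and -4.10, with a difference of -0.38 ± 1.16. NDUFB11, a membrane-arm subunit of complex I, followed the same order with -3.80 and -2.95 and a difference of 0.58 ± 1.10. On C+7 replicate 4 the value of -4.10 is the lowest that its processed signal takes, so COX6A1 and UQCRFS1 sat at the bottom of that array.

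The other 2 probes ran against this order. NDUFA3 measured -3.85, -1.93, 2.43 and -1.92 before calving and -3.91, -3.12, -4.01 and -0.30 after it, a difference of -1.52 ± 1.23. COX6B2 measured -3.13, -2.38, 0.70 and -1.79 before and -3.14, -3.00, -3.58 and 0.23 after, a difference of -0.72 ± 1.16. Both were thus highest on exactly the arrays where the other 5 were lowest.

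C-14 replicate 3 was also the only array for which the scanner software recorded a surface correction of the signal (root mean square 1.83, against 0 on the 7 others). On it, the processed intensity of NDUFA3 was 15989 against a background-subtracted intensity of 125.7, a ratio of 127, and that of COX6B2 was 4834 against 62.6, a ratio of 77.2. Over the 67 member probes detected there, the ratio had a median of 0.575 and ran from 0.165 to 127, with 20 above 1, and the next after NDUFA3 and COX6B2 was ATP5PB, a subunit of the ATP synthase's outer stalk, at 3.48. Over all 4486 probes detected on that array the median was 0.614 and the 99th percentile 71.5, so both probes lay beyond that percentile. On the 7 other arrays the 2 intensities of detected probes differed by at most 4.95e-06 of their size.

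**Figure D2:**
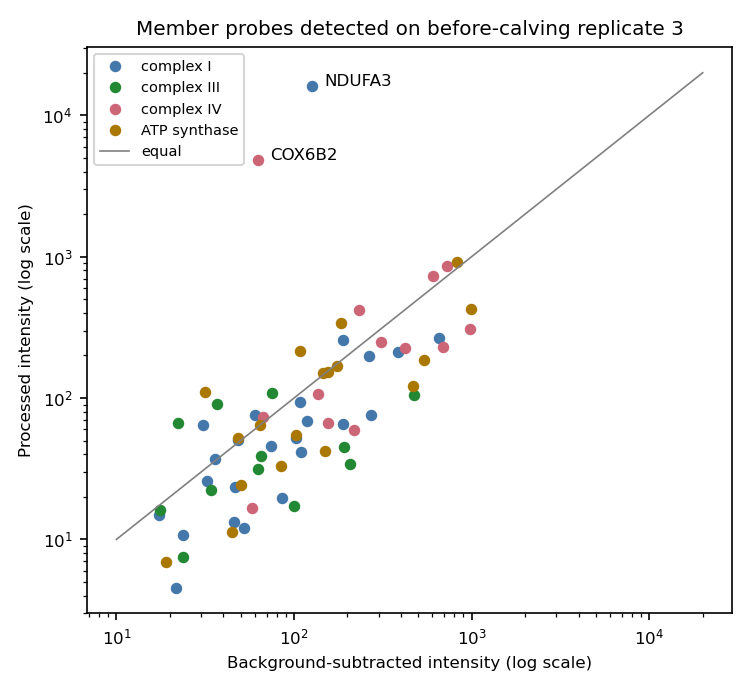
Processed against background-subtracted intensity (both in scanner units, log axes) of the 67 member probes detected on C-14 replicate 3, coloured by complex, with the line of equality. NDUFA3 and COX6B2 lie far above the line, at 127 and 77.2 times, and most other probes below it.

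Because of the dim arrays and this correction, the members were compared in more depth on the 6 arrays with more than 2000 detected probes, replicates 1 to 3 of each time, from the background-subtracted signal. Values were scaled to the 75th percentile of the 1091 probes that all 6 detected and raised to a common floor of -3.54 on the log2 scale, the highest of the 6 arrays' lowest detected signals. The median spread within a time was then 0.435 on the log2 scale. Of 2225 tested probes, 43 were member probes for 34 genes, which is 25.7% of the member probes, whereas 5.10% of all probes could be tested. Of these 43, 26 were detected on all 6 arrays, 8 entered only through C-14 and 9 only through C+7. A probe that entered through 1 time missed detection on at least 1 array of the other, which favours a lower value there without forcing it. Of these, 7 of the 8 were below 0 and 8 of the 9 above it. Of the probes described below, those of NDUFA8, NDUFB4, UQCRB and ATP5PO, the second of ATP5F1A and 1 of ATP5F1C entered only through C-14. Those of NDUFB7, NDUFV1 and ATP5MG, the second of NDUFV2, the first of NDUFA4 and the last 2 of COX5B entered only through C+7.

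No respiratory chain or ATP synthase probe passed the threshold on the 6 arrays. limma with Benjamini-Hochberg adjustment called 0 of 43, beside 5.03% of all tested probes (1.84% higher and 3.19% lower after calving, 41 and 71 probes). At an unadjusted limma p under 0.05 there were 3 of 43 (UQCRB, ATP5PF and ATP5MG), beside 20.6% of all tested probes. The times did not overlap for 8 of the 43 (18.6%), 3 higher and 5 lower after calving, beside 26% of all tested probes. For the 26 member probes detected on all 6 arrays it was 4 (15.4%), 1 higher and 3 lower, beside 28% of the 1091 such probes. These shares of members all lay below the share of all probes.

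The members' differences were centred on 0, with 21 above, 21 below and 1 at 0, a median of 0 and quartiles of -0.38 and 0.48 on the log2 scale. Over all tested probes the median was -0.05. Averaged over the 26 probes detected on all 6 arrays, the members stood at -1.34 ± 0.10 (SD, n = 3) at C-14 and at -1.39 ± 0.17 (SD, n = 3) at C+7. Only 6 of the 43 probes had a 95% interval that stayed within 1 log2 unit of 0, so for most members a 2-fold difference in either direction was not excluded by these arrays. The arrays differed in pattern as well: C-14 replicate 2 was the highest C-14 array at 21 of 43 member probes and the lowest at 13, close to its part in all probes (46.9% and 26.3%). C+7 replicate 1 was the lowest C+7 array at 53.5% of member probes, against 36.9% of all probes.

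**Figure D3:**
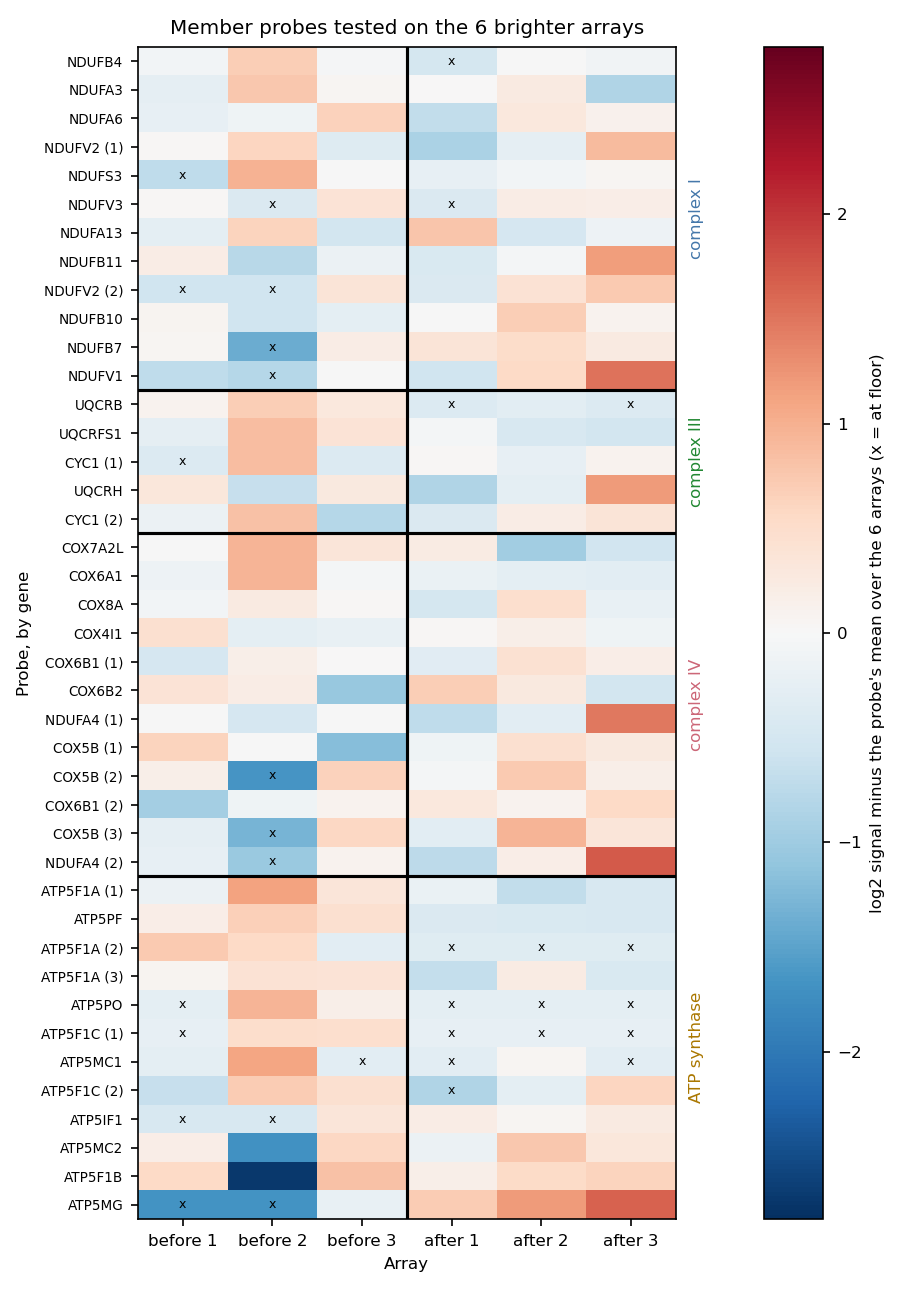
Scaled log2 signal on the 6 brighter arrays of the 41 tested member probes (of 43) that were above the floor on at least 2 of them, each minus the probe's own mean over these arrays, grouped by complex and sorted by difference. A cross marks a value at the floor, and a number after a gene tells its probes apart. C-14 replicate 2 stands out in both directions within a complex, low at ATP5F1B and high at ATP5F1A.

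Complex I showed no common direction. Of its 14 tested probes for 13 genes, 6 were above and 7 below 0, with a median of -0.01, and only NDUFB7 had times that did not overlap. NDUFB4, a membrane-arm accessory subunit, measured -3.13, -2.37 and -3.08 on C-14 replicates 1 to 3 and was at the floor, -3.06 and -3.15 on C+7 replicates 1 to 3, a difference of -0.39 ± 0.27 (limma adjusted p = 0.476). Replicate 2 was the highest at C-14, and the times overlapped. NDUFA3 measured -2.82, -1.81 and -2.53 before and -2.56, -2.33 and -3.43 after calving, a difference of -0.38 ± 0.41 (limma adjusted p = 0.635). Without the surface correction, C-14 replicate 3 lay between the other C-14 arrays for this probe. NDUFA6, which takes part in joining the peripheral arm to the membrane, measured -2.29, -2.17 and -1.41 before and -2.75, -1.77 and -1.94 after, a difference of -0.20 ± 0.37 (limma adjusted p = 0.795), with overlapping times.

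At the other end of complex I stood NDUFV1, the subunit that binds NADH. It measured -3.46, the floor and -2.75 on C-14 replicates 1 to 3 and -3.31, -2.19 and -1.22 on C+7 replicates 1 to 3, a difference of 1.01 ± 0.58 (limma adjusted p = 0.388). C+7 replicate 1 fell among the C-14 values. NDUFB7, a membrane-arm subunit on the intermembrane side, measured -2.10, the floor and -1.94 before and -1.80, -1.63 and -1.89 after, a difference of 0.75 ± 0.46 (limma adjusted p = 0.425). Its times did not overlap, by a narrow margin, and without C-14 replicate 2, which was at the floor, the difference was 0.18. NDUFB10, another membrane-arm subunit, measured -1.10, -1.74 and -1.45 before and -1.18, -0.48 and -1.06 after, a difference of 0.52 ± 0.27 (limma adjusted p = 0.343), and overlapped.

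NDUFV2, which carries an iron-sulfur cluster beside NDUFV1, had 2 tested probes that disagreed by over 0.5, at -0.18 ± 0.53 and 0.49 ± 0.42. The first was detected on all 6 arrays and the second was at the floor on C-14 replicates 1 and 2. NDUFA8 was at the floor on all 6 arrays, which limits what its probe can show. NDUFA13 and NDUFB11, both detected on all 6 arrays, differed by 0.11 ± 0.46 and 0.47 ± 0.50.

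Complex II could not be compared, since SDHB was not detected on every array of a time and its other genes not at all.

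In complex III, 2 probes were above and 3 below 0, with a median of -0.06 over 5 probes for 4 genes. UQCRB, a small subunit on the matrix side near the quinone pocket, measured -3.06, -2.47 and -2.85 on C-14 replicates 1 to 3 and the floor, -3.46 and the floor on C+7 replicates 1 to 3. All C-14 arrays lay above all C+7 arrays. The difference was -0.71 ± 0.18 (95% interval -1.17 to -0.25) and did not pass the threshold (limma adjusted p = 0.102), with 2 of the 3 C+7 values at the floor. UQCRFS1, the Rieske iron-sulfur protein, measured -2.45, -1.32 and -1.81 before and -2.24, -2.63 and -2.71 after, a difference of -0.67 ± 0.33 (limma adjusted p = 0.332). C-14 replicate 1 fell among the C+7 values.

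CYC1 and UQCRH, on the cytochrome c side of complex III, had estimates near 0 with wide standard errors. CYC1 (cytochrome c1) measured -1.29, -0.31 and -1.93 before and -1.53, -0.91 and -0.76 after at 1 probe, a difference of 0.11 ± 0.47, and -0.06 ± 0.39 at the other. UQCRH, the hinge protein that helps cytochrome c1 meet cytochrome c, measured -0.58, -1.53 and -0.61 before and -1.74, -1.16 and 0.31 after, a difference of 0.05 ± 0.61. In all of these the times overlapped.

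In complex IV, 9 of 12 probes for 8 genes were above 0, with no call, and the median was 0.31, or 0.20 over the 9 probes detected on all 6 arrays. Probes of a gene are not independent: COX5B, COX6B1 and NDUFA4 gave 3, 2 and 2 of the probes above 0. With 1 probe a gene, the median was 0.12 over 8 probes, against -0.05 for all tested probes. With each array shifted by its 75th percentile over all probes, the median of complex IV was -0.32 and that of all tested probes -0.58, so complex IV lay 0.25 above it, against 0.37 as reported. The median of complex IV was 0.099 without C-14 replicate 2, 0.084 without C-14 replicate 3 and 0.18 without C+7 replicate 3. COX6B1, on the intermembrane face of the enzyme, measured -1.29, -0.46 and -0.25 before and -0.06, -0.24 and 0.21 after at 1 probe, a difference of 0.64 ± 0.32 (limma adjusted p = 0.339). Here the times did not overlap, but C-14 replicate 3 and C+7 replicate 2 nearly met. At its other tested probe COX6B1 measured -0.03, 0.59 and 0.44 before and 0.11, 0.86 and 0.62 after, a difference of 0.20 ± 0.27 with overlapping times.

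NDUFA4, once counted with complex I, measured -2.74, the floor and -2.40 before and -3.23, -2.33 and -0.78 after, a difference of 0.78 ± 0.70 (limma adjusted p = 0.589), and 0.32 ± 0.62 at its second probe. At both probes C+7 replicate 3 was well above the 5 other arrays, at -0.78 and -0.72, and without it the differences were 0.18 and -0.32. COX5B, a matrix-side subunit that binds zinc, had 3 tested probes at 0.39 ± 0.50, 0.55 ± 0.66 and 0.65 ± 0.58. At the last of these it measured -2.49, the floor and -1.65 before and -2.53, -1.29 and -1.90 after (limma adjusted p = 0.589). C-14 replicate 2 was at the floor at 2 of the 3 COX5B probes, and without it these stood at -0.20 and 0.099. The times overlapped at all 3.

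The lowest complex IV difference was that of COX7A2L, which measured -2.09, -1.12 and -1.73 before and -1.85, -3.04 and -2.60 after, a difference of -0.85 ± 0.41 (limma adjusted p = 0.319). C+7 replicate 1 lay among the C-14 arrays. COX6A1 measured -0.869, 0.235 and -0.782 before and -0.902, -0.999 and -1.03 after, a difference of -0.50 ± 0.33 (limma adjusted p = 0.445). Its C-14 arrays all lay above its C+7 arrays, though replicates 1 and 3 by little, and without C-14 replicate 2 the difference was -0.21. COX8A, the common form of a small membrane subunit, differed by -0.15 ± 0.28 (limma adjusted p = 0.798). COX4I1, which binds regulating nucleotides, was among the most even members, at 0.66, -0.06 and 0.01 before and 0.24, 0.37 and 0.09 after, a difference of 0.03 ± 0.24; it is named after its values were seen.

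The ATP synthase held the members with the widest range. Of 12 tested probes for 9 genes, 4 were above and 8 below 0, with a median of -0.42, and the times did not overlap at 4 (1 higher and 3 lower after calving). ATP5F1A and ATP5F1C gave 3 and 2 of the probes below 0, and with 1 probe a gene the median was -0.35 over 9 probes. The median was 0.13 with normexp background correction and 0.66 in the authors' deposited table of values, where the medians of all tested probes were 0.23 and 1.03. ATP5F1A, the alpha subunit, had 3 tested probes, all below 0. At the first (A_73_120790) it measured -0.93, 0.36 and -0.43 on C-14 replicates 1 to 3 and -0.95, -1.45 and -1.21 on C+7 replicates 1 to 3, a difference of -0.87 ± 0.37 (limma adjusted p = 0.269). The times did not overlap, although replicate 1 of both times nearly met. At the second (A_73_P259462) it measured -2.48, -2.64 and -3.49 before and was at the floor on all C+7 arrays, a difference of -0.66 ± 0.29 (limma adjusted p = 0.285). At the last (A_73_P110951) it measured -0.94, -0.62 and -0.64 before and -1.70, -0.80 and -1.45 after, a difference of -0.59 ± 0.27 (limma adjusted p = 0.300), with C+7 replicate 2 among the C-14 values.

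ATP5PF, coupling factor 6 in the stalk that holds the head in place, came closest to the threshold. It measured -2.55, -2.05 and -2.28 before and -3.12, -3.16 and -3.18 after calving, and was detected on all 6 arrays. All C-14 arrays lay above all C+7 arrays, and the C+7 arrays were nearly equal. The difference was -0.86 ± 0.16 (95% interval -1.27 to -0.45), which is 1.81 times lower, with a limma adjusted p = 0.0523. ATP5PO, the subunit of the same stalk that confers sensitivity to oligomycin, was at the floor, -2.32 and -3.11 before and at the floor on all C+7 arrays, where it was not detected. It was tested only because all C-14 arrays detected it, and the times overlapped, since C-14 replicate 1 was at the floor as well. The C-14 mean was at least 1.46-fold the detection limit at C+7 (limma adjusted p = 0.408); this gene and the third probe of ATP5F1A are named after their values were seen.

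At the other end, ATP5MG, subunit g of the membrane part that takes part in pairing synthases, had the largest difference of any member. It was at the floor, at the floor and -2.06 on C-14 replicates 1 to 3 and at -1.14, -0.65 and -0.20 on C+7 replicates 1 to 3. All C+7 arrays lay above all C-14 arrays. The probe was tested only because all 3 C+7 arrays detected it, against 2 of 3 at C-14, a route that favours a lower value at C-14. The fitted difference was 2.38 ± 0.50 (limma adjusted p = 0.0687), which depends on the floor and is not a measured fold. The gene's 3 other probes were detected on no array.

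ATP5F1B, the catalytic beta subunit, measured -0.08, -3.33 and 0.20 before and -0.47, -0.10 and 0.00 after, a difference of 0.88 ± 1.01 (limma adjusted p = 0.654). C-14 replicate 2 was far below the 5 other arrays, and without it the difference was -0.31. ATP5MC2, the c subunit gene detected on most arrays, measured 0.06, -1.82 and 0.45 before and -0.30, 0.62 and 0.19 after, a difference of 0.61 ± 0.67 (limma adjusted p = 0.643), and without C-14 replicate 2, again the lowest, it was -0.15. The alpha and beta subunits make up the catalytic head in equal numbers, and that array was the highest of the 6 for the first ATP5F1A probe and the lowest of the 6 for ATP5F1B.

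**Figure D4:**
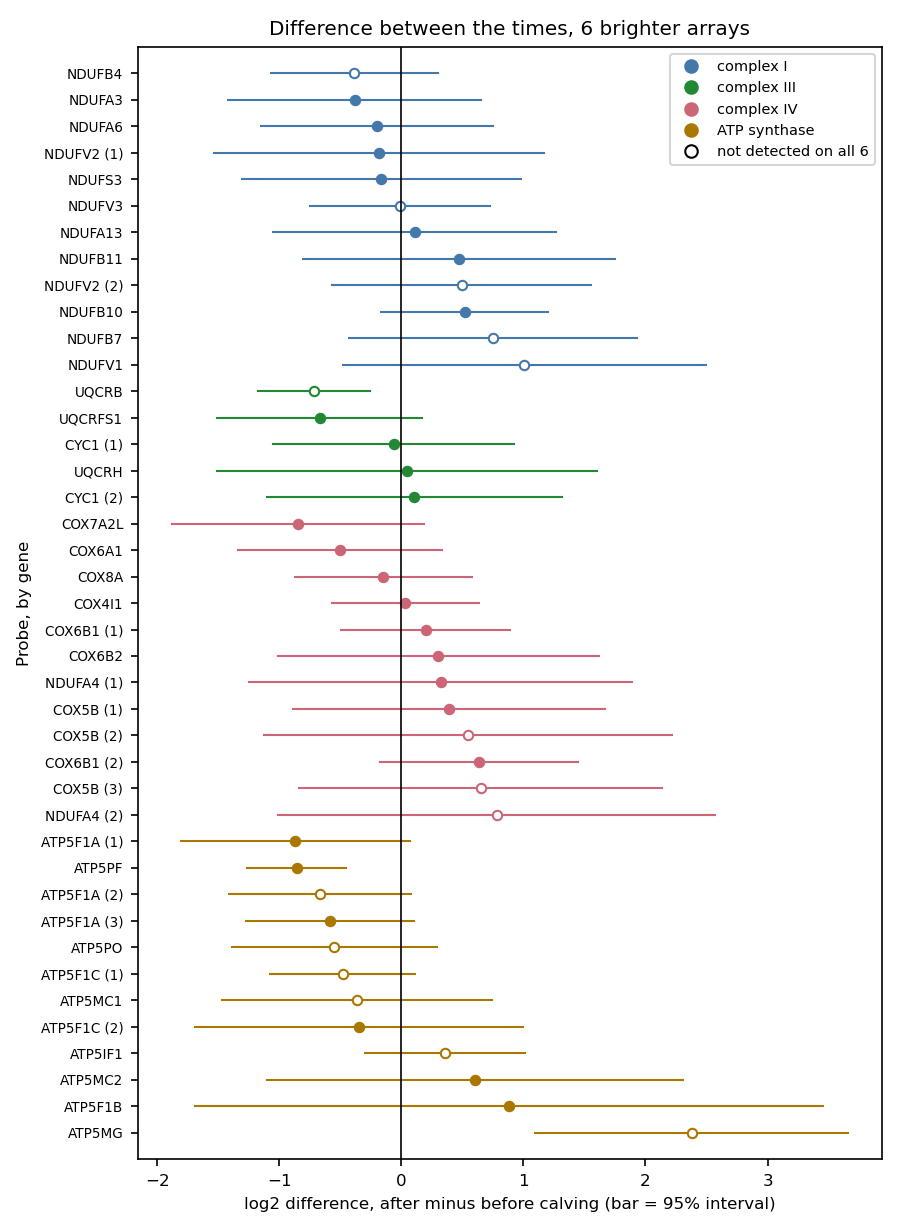
Difference in scaled log2 signal, C+7 minus C-14, of the same 41 member probes on the 6 brighter arrays, with its 95% interval from limma. Filled points were detected on all 6 arrays. The intervals of UQCRB, ATP5PF and ATP5MG do not cross 0, although none passed the adjusted threshold.

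Set against each other, the ATP synthase and complex IV did not differ beyond the spread between arrays. Over the 15 probes of these 2 complexes detected on all 6 arrays, the mean of the ATP synthase minus that of complex IV was -0.21, -0.70 and 0.46 on C-14 replicates 1 to 3 and -0.55, -0.28 and -0.32 on C+7 replicates 1 to 3. The C-14 arrays enclosed the C+7 arrays, and the difference between times was -0.24 ± 0.35 (SE).

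Probes of a gene mostly gave like differences. Of the 7 genes with more than 1 tested probe (CYC1, NDUFV2, COX5B, COX6B1, NDUFA4, ATP5F1A and ATP5F1C), only NDUFV2 had probes more than 0.5 apart. For 23 of the 34 tested genes, however, at least 1 more probe was on the array and could not be tested.

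Which members passed the threshold depended on single C-14 arrays. Without C-14 replicate 1, limma called ATP5PF (-1.03) and 1 probe of ATP5F1C (-0.75). In the comparison of all 6 arrays, that ATP5F1C probe entered only through C-14 and was at the floor on every C+7 array. Its difference therefore depends on the floor and is not a measured fold. Without C-14 replicate 2, it called ATP5PF (-0.80) and UQCRB (-0.66). Without C-14 replicate 3, it called ATP5MG (2.86) and the ATP5F1A probe that is at the floor after calving (-0.98). The limma adjusted p of these 6 calls was 0.0261 to 0.0418, and with any of the 3 C+7 arrays left out no member was called. No member was called in all of these comparisons.

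**Figure D5:**
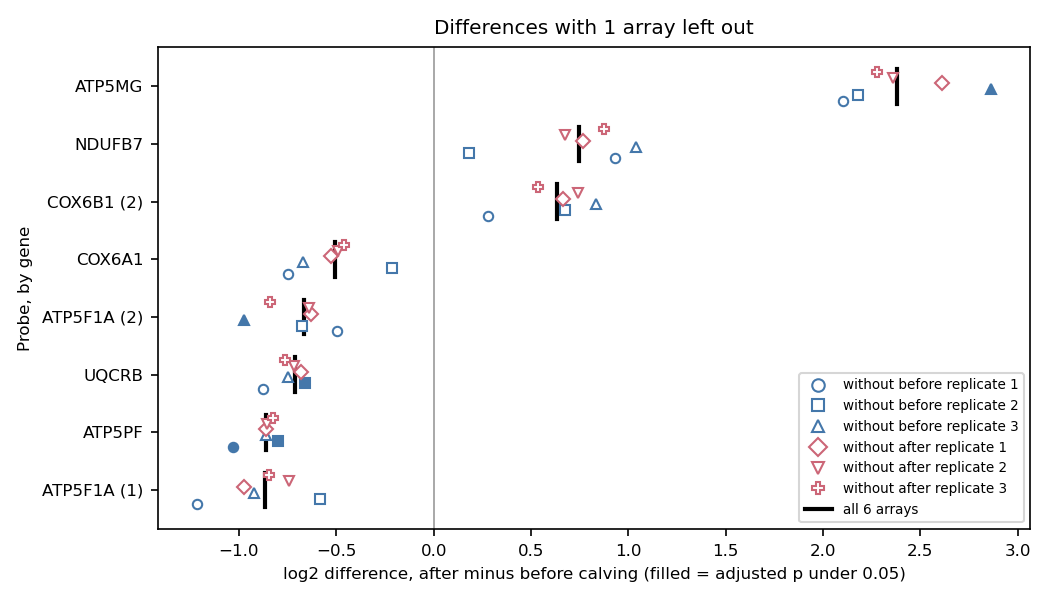
Log2 difference, C+7 minus C-14, of the 8 member probes whose times did not overlap, with each of the 6 brighter arrays left out in turn (symbols) and with all 6 (black bars). Filled symbols mark an adjusted p under 0.05. They occur only where a C-14 array was left out.

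Other genes that serve the same pathway gave no call either. Of the assembly factors, which build the complexes, 3 of 52 probes for 32 genes could be tested and 0 were called, with a median of -0.08; NDUFAF3 was at 0.89 ± 0.63, SDHAF2 at -0.22 ± 0.31 and COX17, which brings copper to complex IV, at -0.08 ± 0.34. Among cytochrome c and the carriers of ADP, ATP and phosphate, 6 of 26 probes were tested for 4 genes and 0 were called, with a median of -0.36. VDAC2, a pore of the outer membrane, was at -0.39 ± 0.18 and -1.09 ± 0.43 at its 2 probes (limma adjusted p = 0.287 and 0.242). Both entered only through the arrays before calving. The first was detected on no array after calving and was at the floor there, so its difference depends on the floor. The second was at the floor on 1 of the 3 arrays after calving. CYCS, cytochrome c itself, was detected on no array. In the tricarboxylic acid cycle, which feeds the chain with NADH and succinate, 3 of 37 probes were tested and 0 were called: SUCLG2 at -0.71 ± 0.19 (limma adjusted p = 0.120), IDH3B at 0.01 ± 0.10 and MDH2 at 0.59 ± 0.42. Of the regulators of mitochondrial genes only ESRRA was tested, at 0.68 ± 0.22 (limma adjusted p = 0.167). None of the 13 genes of the mitochondrial genome was matched to a probe, so the subunits encoded there were not analysed here.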

How the data were processed

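Each of the 8 scanner files holds 1 array read by Agilent Feature Extraction, version 10.10.1.1 with protocol GE1_1010_Sep10 per the file headers (the submitters' processing notes name version 9.1). The deposited intensity values are background-subtracted, and the processed signal of C-14 replicate 3 also carries a surface correction, per the file headers; nothing was normalized between arrays. The deposited log2 value table of the series served as an alternative only. No source used here states its scale or centring; each of its columns was matched to the scanner values (lowest correlation 1.00) through the order of probe names, its column medians ran from -2.61 to 0.0289, and its differences between arrays are those of log2 processed signal.

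Control spots and spots with an outlier mark (6 to 45 per array) were left out, spots of a probe averaged, and probes named through their RefSeq accession in a table of a newer bovine assembly; no coordinates are given for that reason. No sequence was used. Tests were run in R 4.3.3 with limma 3.58.1 (lmFit and eBayes, 2 groups), with all tested probes in each fit, after a check of the same code on simulated arrays. The precision rests on 4 or 3 arrays per time, and p-values would be too small if arrays of a time share a cow. With 4 arrays per time, some must share a cow if the 3 cows of the series text gave them all.

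The probes named in the text were each member tested on 8 arrays, the up to 3 highest and 3 lowest differences of each complex on 6 arrays, genes with discordant probes and the isoform pairs; 1 probe is counted but not reported here by name. The members and gene lists, and the use of 6 arrays, were chosen with earlier results of these data known. Alternatives covered the signal, normexp background correction (offset 50, run on the median signal since the mean is not in these files), scaling, filters, probe choice, array weights, the floor, a replicate block and each array left out. Replicate numbers were not treated as pairs: on 6 arrays, same-numbered arrays had deviations correlated at 0.06, -0.25 and 0.26, and on 8 arrays at 0.58, 0.22, -0.26 and 0.49, so that not every pair was above 0.1. On 8 arrays replicates 1 and 4 at C-14 correlated best with their own number, and on 6 arrays none did.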

Additional observations from a re-analysis of the deposited data

Results flagged for a closer look

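In 28 groups of 4 arrays (the 7 member probes tested on 8 arrays and the detected shares), 3 held an array whose gap to its nearest neighbour was large for the range of the group. Chance gives about 1 in 20 for independent values without ties. The detected shares hold ties and the complexes are parts of the whole set, so that rate does not apply to them. COX6B2 measured 0.23 on C+7 replicate 4 (scaled log2 processed signal), where the other C+7 arrays ranged from -3.58 to -3.00. Before scaling, its intensity on C+7 replicate 4 was 81.9, against 78.7, 79.3 and 38.2 on C+7 replicates 1 to 3, so the gap came with the scaling. Complex II had 14.3% of its probes detected on C-14 replicate 1, which is the SDHB probe alone, and 0% on the other C-14 arrays. With 0% on those, the gap is the whole range, so any detection on 1 array alone would be flagged. Complex IV had 2.94% of its probes detected on C+7 replicate 4, which is the COX6B2 probe, against 35.3% to 38.2% on the other C+7 arrays. The array behind the first and the last of these had the fewest detected probes of all 8.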

How the results depend on the processing

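On 8 arrays, 0 members were called in each alternative run, the replicate block and each left-out array included; over all tested probes limma called 0, against 1 with no filter, 15 with array weights (11 higher and 4 lower) and 0 to 1 with an array left out, the 1 being without C+7 replicate 4. The median of the 8-array members (-0.56) ran from -0.60 to 0.60 with an array left out, the 0.60 again without C+7 replicate 4. All tested probes were at -0.67 and 0.42 in those runs. On 6 arrays, member calls (0) became 1 with normexp (ATP5MG at 1.68, limma adjusted p = 0.0314), 1 with array weights (ATP5PF at -0.79, limma adjusted p = 0.0284) and 0 to 2 with an array left out, and were 0 in the others. Over the 6-array alternatives, the adjusted p ran from 0.0314 to 1 for ATP5MG and from 0.0279 to 1 for ATP5PF, with both at 1 when C-14 replicate 4 was added; ATP5PF was above 0, at 0.63, in the deposited value table. Calls over all probes (112, 41 higher and 71 lower) became 12 with the processed signal (8 and 4), 5 with the deposited table (5 and 0), 1 with no filter (1 and 0), 50 with probes detected on every array (20 and 30), 61 with trend and robust settings (30 and 31), 0 with the replicate block in limma (454 at an unadjusted limma p under 0.05, against 458 without it), 12 with C-14 replicate 4 added (11 and 1) and 22 with the floor raised by 1 (14 and 8). With an array left out they ran from 4 to 167: 121, 167 and 69 without C-14 replicates 1 to 3 and 56, 7 and 4 without C+7 replicates 1 to 3. The split moved with normexp (105, 78 higher and 27 lower), scaling over all probes (114, 15 and 99), array weights (131, 43 and 88) and 1 probe a gene (96, 36 and 60). Scaling over all probes moved the median of all probes from -0.05 to -0.58 and gave members -0.53, complex I -0.43, complex III -0.59, complex IV -0.32 and the ATP synthase -1.10. The deposited table moved it to 1.03 and gave 1.30, 1.48, 1.35, 1.35 and 0.66. Relative to the median of all probes, complex IV lay at 0.25 and 0.32 and the ATP synthase at -0.52 and -0.36 under these, against 0.37 and -0.37 as reported; with normexp they lay at 0.090 and -0.11, with the floor raised by 1 at 0.16 and -0.045, and with no filter or C-14 replicate 4 added at 0. With 1 probe a gene, complex IV lay at 0.17 and the ATP synthase at -0.29 relative to the median of all probes. With an array left out, the median of complex IV ran from 0.084 to 0.50. The median of members was 0.23 with the processed signal. The median of the ATP synthase was 0.13 with normexp, where all probes were at 0.23, 0 with no filter, 0 with C-14 replicate 4 added and -0.045 with the floor raised by 1. No paired result changed a member's call. Of single member values, 591 on 6 arrays and 116 on 8 moved by less than 1 SE, 141 and 5 by more, and 8 became calls, named above; the cause of these shifts was not tested. Low signal over background is 1 limit: 95 of 167 member probes were never detected, and with C-14 replicate 4 added the floor rose from -3.54 to -2.15.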
